A study of Mus musculus with 14 samples.

Results

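Heat shock chaperones are proteins that bind unfolded or partly folded proteins, and their genes were followed here across 4 groups of mouse B cells. The 10 genes were taken by name from the rows of the deposited count tables: Hspa1a, Hspa1b, Dnajb1, Hsph1 and Hsp90aa1, grouped here as 5 stress-inducible chaperones, and Hspa8, Hsp90ab1, Dnaja1, Hspd1 and Hspe1, grouped as 5 constitutive chaperones. All 10 were present in both tables, out of 41053 gene rows in each, and all 10 passed the filter on low counts in every comparison. RNA was sequenced from germinal center (GC) B cells of Tet2 wild-type (WT, 3 libraries) and Tet2 knock-out (KO, 4 libraries) mice, and from lymphoma B cells with a knock-down of Tet2 (shTet2, 2 libraries) and their controls (5 libraries), labelled wild type for Tet2. The labels give spleen of C57BL/6 mice for all 14 libraries, with no further treatment, and Tet2 encodes a dioxygenase that oxidises methylcytosine in DNA. Replicates carry only a number, and nothing in the labels says whether they came from separate animals, so each p-value reflects spread among the libraries sequenced, which may be technical. The sources used here do not say which part of Tet2 was deleted or in which cells, how the lymphoma arose, what the control libraries carried in place of the hairpin, how the cells were purified or how old the mice were.

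Heat shock protein 70 (HSP70) chaperones hold and release stretches of unfolded protein in a cycle driven by ATP, with J-domain proteins (HSP40) delivering the substrate and HSP110 proteins exchanging the nucleotide. HSP90 chaperones act later, on kinases, receptors and other nearly folded clients, and the HSP60 and HSP10 chaperonin folds proteins imported into mitochondria. In unstressed cells the constitutive forms carry out this work, and heat or other protein damage releases heat shock factor 1 (HSF1), which switches on the inducible forms through repeated short elements in their promoters. B cells of the germinal center divide fast and have a high demand for protein folding.

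The 2 inducible HSP70 genes, Hspa1a and Hspa1b, are single-exon genes side by side on the minus strand of chromosome 17, at 34969190 to 34972156 and 34956436 to 34959238 (GRCm38, exon coordinates of the files). Their transcripts are near copies: in the GENCODE M21 transcripts, 58.8% of all 50-base stretches of Hspa1a also occur in Hspa1b, and 62.3% of those of Hspa1b occur in Hspa1a. The split of reads between Hspa1a and Hspa1b is therefore uncertain, and their sum is given in each comparison. The other genes lie on chromosomes 8 (Dnajb1, 83608175 to 83611902), 5 (Hsph1, 149614287 to 149636376), 12 (Hsp90aa1, 110690605 to 110702728), 9 (Hspa8, 40800984 to 40805200), 17 (Hsp90ab1, 45567775 to 45573271), 4 (Dnaja1, 40722150 to 40737149) and 1 (Hspd1, 55077835 to 55088243, and Hspe1, 55088132 to 55091307). Transcripts of other genes, pseudogenes included, hold 58.5% of the 50-base stretches of Hsp90aa1, 52.7% of Hspa8, 44.8% of Hspd1 and 28.8% of Dnaja1. The same share was 8.20% for Hspe1, 4.49% for Hsp90ab1, 0.441% for Dnajb1 and 0 for Hsph1. The counting command in the file headers has no option for reads that map to several places, so levels of genes with large shared stretches are uncertain beside those of the others. Hspd1 and Hspe1 lie head to head on chromosome 1 and share 112 exon bases on opposite strands. Dnaja1 on chromosome 4 overlaps exons of Smu1 on the other strand over 608 bases. Hspa1a overlaps Gm20481, also on the other strand, over 564 bases (19.0% of its exon bases), and Gm20481 itself held 0 counts. The counting used no strand option, so reads in those stretches cannot be told apart.

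RefSeq promoter windows (GRCm38.p6, 250 bases before to 50 after a transcription start) were at hand for 7 of the 10 genes, in 12 windows. They are shown because HSF1 is known to bind inverted repeats of GAA, and the 4 windows below belong to the near-identical HSP70 pair and to 2 genes with runs of such repeats. Capitals mark every match to GAANNTTC or TTCNNGAA, each its own reverse complement, so that both strands are covered, and overlapping matches run together. The first 2 windows, chr17:34972107-34972406 and chr17:34959189-34959488 (minus strand), differ at 4 of 300 bases. The Hsph1 window is chr5:149636287-149636586 (minus strand) and the Hspe1 window is chr1:55087898-55088197 (plus strand).
Hspa1a: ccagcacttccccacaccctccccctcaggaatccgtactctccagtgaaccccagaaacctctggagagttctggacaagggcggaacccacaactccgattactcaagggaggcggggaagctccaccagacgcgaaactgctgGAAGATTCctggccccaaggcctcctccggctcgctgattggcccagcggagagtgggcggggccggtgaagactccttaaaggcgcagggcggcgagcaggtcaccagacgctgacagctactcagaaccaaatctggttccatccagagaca
Hspa1b: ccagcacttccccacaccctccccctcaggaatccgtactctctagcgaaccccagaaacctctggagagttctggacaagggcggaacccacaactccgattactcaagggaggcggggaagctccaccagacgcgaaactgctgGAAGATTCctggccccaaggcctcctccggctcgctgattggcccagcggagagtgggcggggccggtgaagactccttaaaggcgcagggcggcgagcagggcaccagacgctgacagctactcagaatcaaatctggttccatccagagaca
Hsph1: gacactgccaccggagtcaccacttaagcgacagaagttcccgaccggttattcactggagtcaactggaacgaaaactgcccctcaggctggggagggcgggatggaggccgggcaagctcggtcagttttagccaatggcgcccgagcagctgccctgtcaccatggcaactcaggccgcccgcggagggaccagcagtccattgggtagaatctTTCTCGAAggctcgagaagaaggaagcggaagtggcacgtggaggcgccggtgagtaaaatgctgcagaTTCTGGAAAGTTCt
Hspe1: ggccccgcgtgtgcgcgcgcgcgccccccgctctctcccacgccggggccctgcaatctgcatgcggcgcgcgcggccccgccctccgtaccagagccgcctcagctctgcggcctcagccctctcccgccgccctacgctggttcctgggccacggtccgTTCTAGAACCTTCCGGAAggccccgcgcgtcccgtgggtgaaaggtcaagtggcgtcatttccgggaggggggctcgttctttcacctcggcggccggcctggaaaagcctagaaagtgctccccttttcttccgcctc
Hspa1a and Hspa1b each held 1 match, beginning 104 bases before the start. Hsph1 held 3 matches, 2 of them run together downstream of the start. The 3 matches of Hspe1 run together before its start, and the same stretch, read from the other strand, lies before the inner of the 2 starts of Hspd1, within the annotated span of that gene. At least 1 match was found for 6 of the 7 genes, against 17.0% of all 27025 genes with a window. By window it was 7 of 12, against 15.1% of all 32851 windows. Hspa1a and Hspa1b, with near-identical windows, and Hspd1 and Hspe1, with a shared stretch, are each counted as separate genes here, so the counts are not of independent sequences. The longer form of 3 alternating units, GAANNTTCNNGAA or TTCNNGAANNTTC, was found for 3 of the 7 (Hspd1, Hspe1 and Hsph1), against 0.662% of all genes. Neither window of Dnajb1 held these letters. Genes of both classes held the longer form, so the letters do not follow the grouping into inducible and constitutive genes. These matches describe letters in the windows and do not show binding.

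The GC libraries held 27191862 to 30434184 counts and the lymphoma libraries 6691167 to 18598386, of which 0.370 to 1.32% and 44.97 to 80.7%, respectively, lay in rows of ribosomal and other structural RNA. Levels are given as CPM (counts scaled to a common library size), scaled with TMM factors over all 14 libraries. Tet2 itself lay at 7.52 to 8.95 CPM in WT and 7.78 to 9.53 CPM in KO libraries, counted over the whole gene, so that exons outside a deletion would still be counted and the KO label is not checked by it. It lay at 89.0 to 105 CPM in control and 79.3 to 86.0 CPM in shTet2 lymphoma (log2 fold change -0.21, SE 0.10, adjusted p = 0.295, edgeR). Both shTet2 libraries were below all controls without passing the test, and the labels are used as given. The summed level of 8 B-cell markers was 5492 to 5907 CPM in GC and 3931 to 4544 CPM in lymphoma libraries. That of 8 GC B-cell markers was 1254 to 1526 CPM in GC but 178 to 229 CPM in control and 289 to 353 CPM in shTet2 lymphoma libraries. The labels call the lymphoma cells only B cells. The low GC markers are a measured difference between the GC and lymphoma libraries. Cell type, count table, structural RNA share and depth cannot be told apart there.

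In GC B cells, Hspa1a and Hspa1b were close to silent in WT and present in all 4 KO libraries, while the constitutive chaperones overlapped between genotypes, Hspe1 with 3 of its 4 KO libraries above WT. Hspa1a had 9, 10 and 0 reads in WT replicates 1, 3 and 4, against 300, 260, 28 and 97 reads in KO replicates 2, 3, 4 and 5. On the CPM scale these were 0.183, 0.211 and 0, against 6.56, 5.58, 0.638 and 2.12, where a count of 0 allows up to 0.0699 CPM by counting error alone. The KO libraries were all higher than the WT libraries, KO replicates 2 and 3 were high and KO replicate 4 was low. Hspa1b had 28, 19 and 18 reads in the same WT libraries and 770, 707, 64 and 234 in the KO libraries, or 0.568, 0.400 and 0.419 CPM against 16.8, 15.2, 1.46 and 5.10 CPM. The order of the KO libraries was the same as for Hspa1a, and again no KO library overlapped a WT library. Mean levels were 28.4-fold higher in KO for Hspa1a (3.72 ± 2.80 against 0.131 ± 0.114 CPM, SD, n = 4 and 3) and 20.8-fold higher for Hspa1b (9.64 ± 7.53 against 0.463 ± 0.0918 CPM). Within the KO group itself the highest library exceeded the lowest by 10.3-fold for Hspa1a and 11.5-fold for Hspa1b.

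With that spread, neither gene passed the test. The log2 fold change was 4.71 for Hspa1a (SE 1.21, adjusted p = 0.0933) and 4.32 for Hspa1b (SE 1.09, adjusted p = 0.0943) in edgeR's quasi-likelihood test with Benjamini-Hochberg adjustment over 13600 genes. Both were called without KO replicate 4, in DESeq2 and in 1 model of all 4 groups. Hspa1a was also called with the replicate number as a block (adjusted p = 9.89e-10). Only numbers 3 and 4 occur in both genotypes, so that fit rests on those replicates, and Hspa1a had 0 reads in WT replicate 4. The numbers were not taken to pair the libraries. Adjusted p ranged from 9.89e-10 to 0.253 for Hspa1a and from 1.38e-05 to 0.668 for Hspa1b over 16 alternative settings, and the direction was the same in each. Summed over the pair, the libraries held 37, 29 and 18 reads in WT and 1070, 967, 92 and 331 reads in KO. This sum does not depend on how reads were split between the 2 copies. Reads that map to both copies may be missing from it, since the counting had no option for such reads. In these bulk samples, fewer cells of a type and less RNA per cell cannot be told apart.

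The other inducible chaperones overlapped or nearly met between genotypes in the same libraries. Dnajb1, the J-domain partner of inducible HSP70, lay at 70.5, 79.3 and 76.9 CPM in WT and 91.9, 93.0, 82.4 and 79.7 CPM in KO. The lowest KO library lay just above the highest WT library (log2 fold change 0.15, SE 0.09, adjusted p = 0.374). Hsph1, an HSP110 nucleotide exchange factor, lay at 82.8 to 110.1 CPM in KO and 88.5 to 115 CPM in WT. Hsp90aa1, the inducible cytosolic HSP90, lay at 85.0 to 93.5 CPM in KO and 80.0 to 99.7 CPM in WT, and both genes overlapped between genotypes. Among all genes tested, 11.9% had every KO library above every WT library, and 3 of the 10 chaperones did so (Hspa1a, Hspa1b and Dnajb1). A further 8.3% of all genes had every KO library below every WT library, 20.2% in all.

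The constitutive chaperones of the cytosol overlapped between genotypes. Hspa8, the HSC70 protein that is the everyday form of HSP70, was at 192, 283 and 247 CPM in WT and 247, 263, 235 and 216 CPM in KO (log2 fold change -0.05, SE 0.11). Hsp90ab1, the constitutive HSP90, was at 1848, 1955 and 1884 CPM in WT and 2135, 1985, 2174 and 1926 CPM in KO (0.06, SE 0.08). Dnaja1, a J-domain partner of Hspa8, was at 33.7 to 37.8 CPM in WT and 34.9 to 41.5 CPM in KO. The mitochondrial chaperonin subunit Hspd1 (HSP60) was at 80.5 to 89.0 CPM in WT and 79.0 to 99.5 CPM in KO. Its lid Hspe1 (HSP10) was at 16.1, 16.5 and 19.2 CPM in WT and 30.8, 21.5, 19.1 and 23.6 CPM in KO, with KO replicate 2 high and KO replicate 4 within the WT range (log2 fold change 0.41, SE 0.14, adjusted p = 0.113). Hspe1 was called when the filter on low counts was dropped (adjusted p = 0.00777; range over 16 settings 0.00777 to 0.807).

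In all, 0 of the 10 chaperones passed edgeR's test between KO and WT, where 6.49% of all genes did (1.92% higher and 4.57% lower). At an unadjusted p under 0.05 there were 3 (Hspa1a, Hspa1b and Hspe1), against 19.9% of all genes. DESeq2 called 2 and limma-voom 0. The median log2 fold change of the 10 was 0.04, beside 0.01 over all genes.

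**Figure D1:**
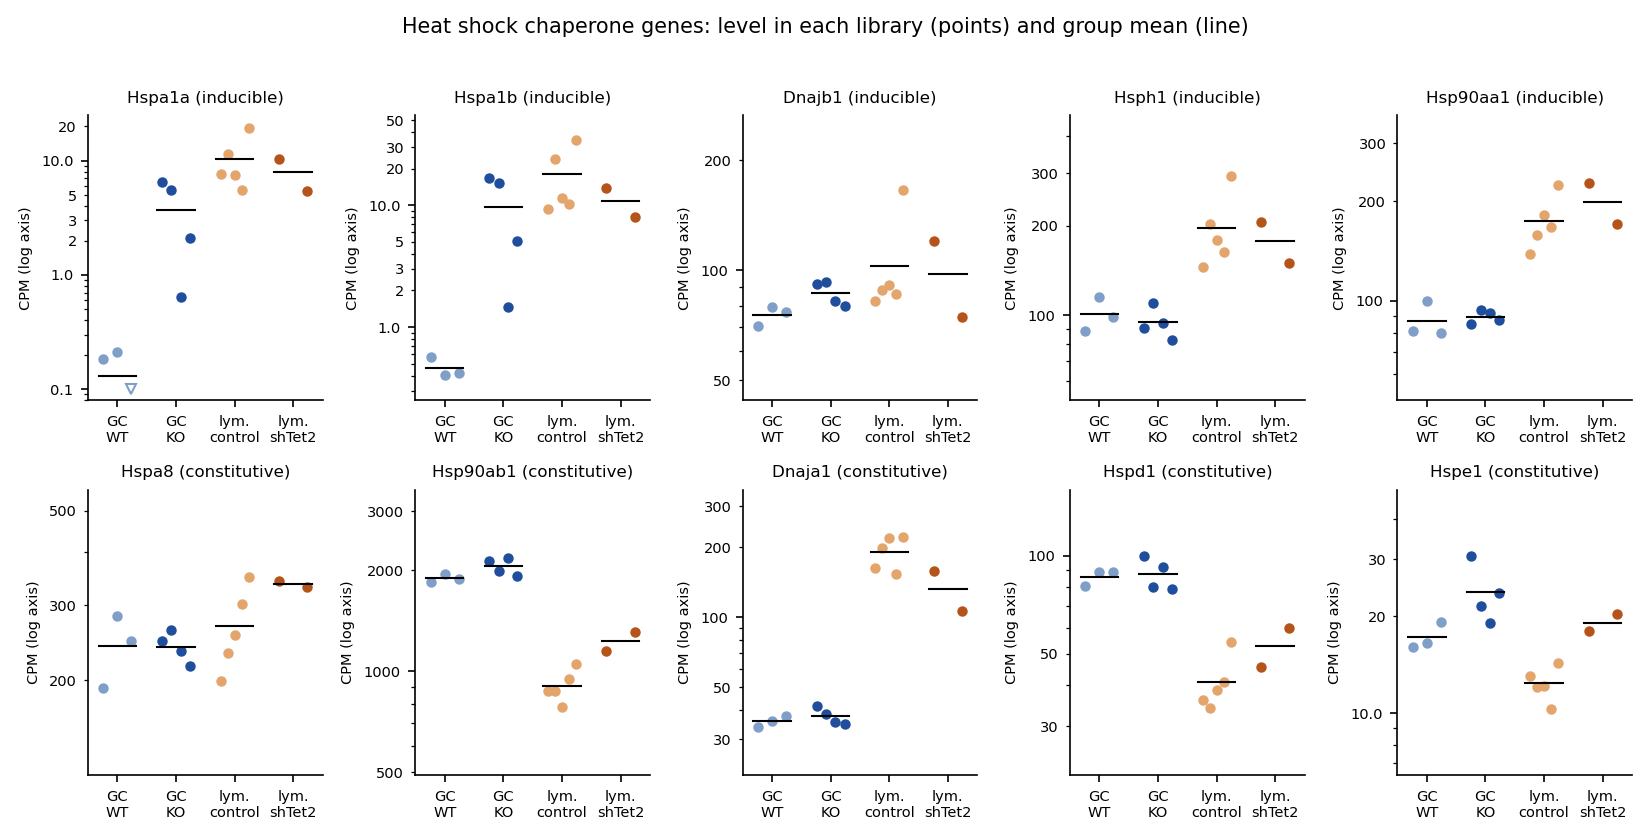
Level of each chaperone gene in CPM (log axis) for the 14 libraries, in 4 groups, with points for libraries in order of replicate number, lines for group means and an open triangle for a library with 0 counts. Hspa1a and Hspa1b lie between 0 and 0.568 CPM in WT GC B cells and spread over 10.3-fold and 11.5-fold among the KO libraries, while Hsp90ab1, Hspd1 and Hspe1 are lowest in the control lymphoma libraries.

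Markers of other cell types were read beside the KO result. The summed level of 12 myeloid markers was 11.4 to 15.2 CPM in KO and 26.0 to 36.8 CPM in WT libraries, and 7 of the 8 tested were called lower in KO (4.57% of all genes were), with Mpo at 0 in WT. That of 9 T-cell markers was 80.5 to 96.6 CPM in KO and 108 to 136 CPM in WT, with 1 of the 6 tested called higher in KO and 1 lower. Both sums were lower in KO than in WT. Of the 6 T-cell markers tested, however, 3 had a positive log2 fold change (median 0.03), whereas 0 of the 8 myeloid markers did (median -1.30). Among the KO libraries, replicate 2, highest in Hspa1a and Hspa1b, had 14.02 CPM of myeloid and 96.6 CPM of T-cell markers, and replicate 4, lowest in both genes, had 12.4 and 95.8 CPM. The immediate early genes, which respond quickly to stimulation of a cell, summed to 1217, 1478, 978 and 1358 CPM in KO replicates 2 to 5 and 1063, 854 and 1085 CPM in WT. KO replicate 4, lowest of the KO libraries in the inducible HSP70 genes, was also the lowest of them in this sum. The other libraries did not follow that order. KO replicate 2, highest in those genes, lay below KO replicates 3 and 5 in the sum, and KO replicate 4 lay below WT replicates 1 and 4. The share of structural RNA was 0.713 to 1.04% in KO and 0.370 to 1.32% in WT. The part of these differences in the HSP70 result was not tested.

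In lymphoma cells no inducible chaperone separated shTet2 from control, and 2 constitutive ones did so without passing the test. Hspa1a lay at 7.61, 11.3, 7.55, 5.48 and 19.2 CPM in control replicates 1 to 5 and at 10.3 and 5.46 CPM in the shTet2 libraries (log2 fold change -0.37, SE 0.50). Hspa1b lay at 9.36, 24.1, 11.4, 10.2 and 34.3 CPM in control and at 13.8 and 7.98 CPM in shTet2 (-0.70, SE 0.64). Control replicates 5 and 2 were high for both genes, and the groups overlapped. Summed over the pair the levels were 17.0, 35.4, 18.9, 15.7 and 53.5 CPM in control and 24.1 and 13.4 CPM in shTet2. Without control replicate 5 or without shTet2 replicate 2, the sign of Hspa1a turned (0.02 and 0.0024).

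Dnajb1 was at 82.5, 88.0, 91.3, 86.1 and 166 CPM in control and at 120.5 and 74.3 CPM in shTet2. Hsph1 was at 145, 203, 178, 162 and 294 CPM in control and at 206 and 149.8 CPM in shTet2. Hsp90aa1 was at 139, 158, 182, 167 and 224 CPM in control and at 228 and 171 CPM in shTet2. For all 5 inducible genes control replicate 5 was the highest control library and shTet2 replicate 1 lay above shTet2 replicate 2. Control replicate 5 was not apart in structural RNA (68.2%, in a control range of 57.5 to 80.7%), and its immediate early genes summed to 1883 CPM, the lowest of the controls (1883 to 2571 CPM).

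Among constitutive chaperones of the lymphoma cells, Hsp90ab1 was at 871, 873, 784, 947 and 1051 CPM in control and at 1149.8 and 1313 CPM in shTet2. Hspe1 was at 13.1, 12.1, 12.2, 10.3 and 14.3 CPM in control and at 18.0 and 20.3 CPM in shTet2. Both shTet2 libraries lay above all 5 controls for these 2 genes of the 10, against 12.5% of all genes. The log2 fold changes were 0.42 for Hsp90ab1 (SE 0.11, adjusted p = 0.0731) and 0.61 for Hspe1 (SE 0.16, adjusted p = 0.0639), just short of the threshold in edgeR. Hsp90ab1 was called in DESeq2, without a filter, in 1 model of all 4 groups, without control replicate 5 and without shTet2 replicate 1 (adjusted p 0.00409 to 0.479 over 16 settings). Hspe1 was called in 3 of these settings (0.0211 to 0.551 over 16 settings).

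Hspa8 was at 199, 232, 256, 302 and 350.4 CPM in control and at 343 and 330.5 CPM in shTet2, within the upper part of the control range (log2 fold change 0.31, SE 0.18). Hspd1 was at 36.1, 34.0, 38.6, 41.0 and 54.5 CPM in control and at 45.4 and 60.0 CPM in shTet2 (0.34, SE 0.17). Dnaja1 ran the other way, at 162, 199, 219, 154 and 220.4 CPM in control and at 158 and 106 CPM in shTet2, with 1 shTet2 library inside the control range (-0.55, SE 0.19, adjusted p = 0.169). It was called without shTet2 replicate 1, the library inside that range (-0.87, adjusted p = 0.0271; range over 16 settings 0.0271 to 0.743).

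In all, 0 of the 10 passed edgeR's test between shTet2 and control, where 2.58% of all 12797 genes did. At an unadjusted p under 0.05 there were 3 (Hsp90ab1, Dnaja1 and Hspe1), against 19.1% of all genes. DESeq2 called 1 and limma-voom 0. In either direction the groups did not overlap for 2 of the 10, against 21.0% of all genes (8.52% with both shTet2 libraries below all controls). The median log2 fold change was -0.16 over the 5 inducible and 0.34 over the 5 constitutive genes, beside -0.0041 over all genes. The 12 myeloid markers summed to 49.2 to 77.2 CPM in control and to 47.6 and 116 CPM in shTet2 libraries 1 and 2, with 0 of 10 called. Of the GC B-cell markers 2 of 7 were called higher in shTet2, and of the plasma-cell markers 2 of 5, against 1.84% of all genes. The GC markers summed to 178 to 229 CPM in control and 289 to 353 CPM in shTet2, and the plasma-cell markers to 329 to 468 CPM and 457 to 760 CPM. The part of these markers in the chaperone values was not tested.

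The KO effect minus the shTet2 effect was tested in 1 model of all 14 libraries. It was 5.10 for Hspa1a (log2, SE 1.34, adjusted p = 0.0569) and 5.04 for Hspa1b (SE 1.31, adjusted p = 0.0552), just outside the threshold. Of the 10 genes 0 were called by edgeR, where 4.99% of all 15441 genes were (1.61% higher and 3.39% lower), and 4 had an unadjusted p under 0.05 (Hspa1a, Hspa1b, Hsp90ab1 and Dnaja1), against 19.7% of all genes. DESeq2 called Hspa1a and Hspa1b (adjusted p = 0.00127 and 0.000168) and limma-voom neither. Without KO replicate 4 both were called (adjusted p = 0.0133 and 0.0132). Over 22 alternative settings the adjusted p ran from 0.00127 to 0.256 for Hspa1a and from 0.000168 to 0.547 for Hspa1b. Without shTet2 replicate 1 the gene called was Dnaja1 (0.92, adjusted p = 0.0039).

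**Figure D2:**
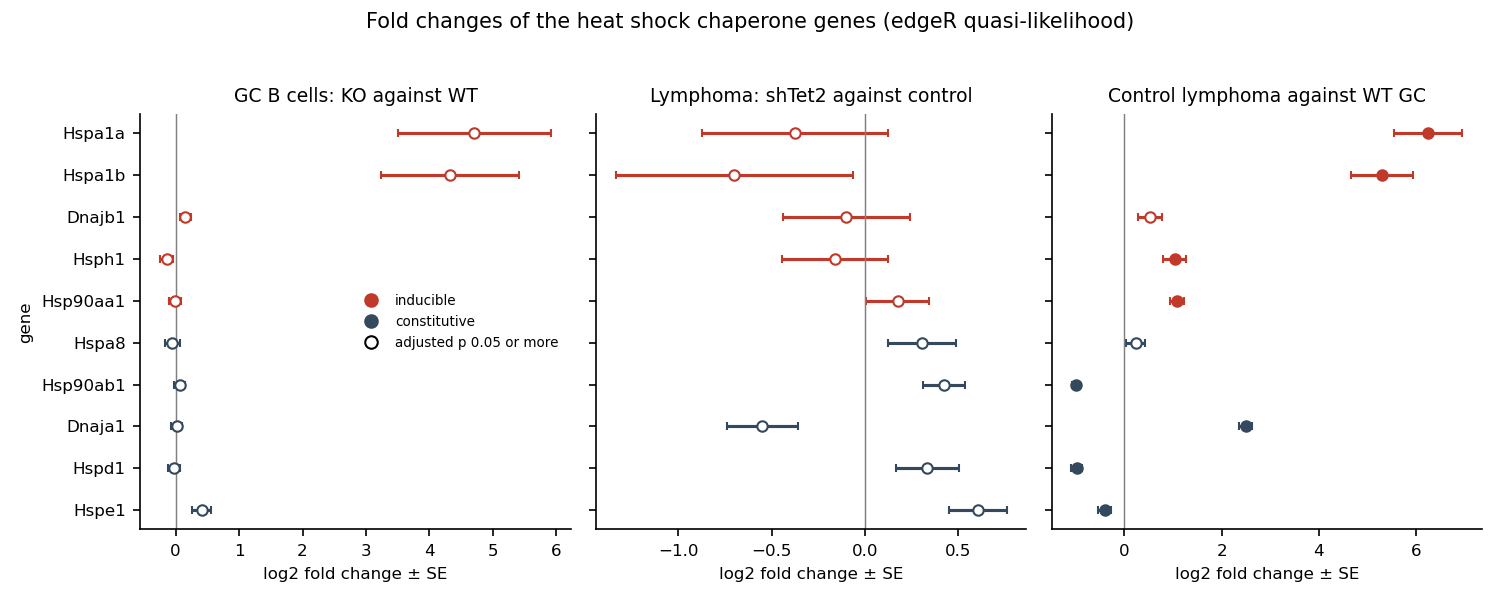
Log2 fold changes with their standard errors for the 10 genes (rows) in 3 comparisons (panels, each with its own scale), in red for inducible and dark blue for constitutive genes, with filled points for an adjusted p under 0.05. No point is filled in the 2 Tet2 comparisons, where Hspa1a and Hspa1b in GC B cells stand at 4.71 and 4.32, and 8 are filled between control lymphoma and WT GC B cells.

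The 2 control groups were then set side by side, since the file headers give the same counting command and annotation for both tables. Cell type, count table, structural RNA share and depth all differ between these groups and cannot be told apart, and the WT and control libraries are the same ones used above. Of the 5 inducible chaperones, 4 were called higher in lymphoma, where 40.6% of all genes were. Hspa1a was 78.1-fold higher in mean CPM (10.2 ± 5.45, n = 5, against 0.131 ± 0.114, n = 3; log2 fold change 6.25, SE 0.70, adjusted p = 2.79e-05) and Hspa1b 38.6-fold higher (17.9 ± 10.99 against 0.463 ± 0.0918; 5.30, SE 0.63, adjusted p = 0.00012). The sum of the pair was 0.419 to 0.751 CPM in WT and 15.7 to 53.5 CPM in control libraries. Hsp90aa1 was 2.003-fold higher (174 ± 32.1 against 86.9 ± 11.2 CPM; 1.08, SE 0.14, adjusted p = 7.56e-06), and Hsph1 1.95-fold higher (196 ± 58.3 against 101 ± 13.4 CPM; 1.04, SE 0.24, adjusted p = 0.00431). Dnajb1 did not pass the test (103 ± 35.4 against 75.5 ± 4.57 CPM; 0.53, SE 0.24, adjusted p = 0.0781), although every control library lay above every WT library. It was called in 5 of 17 alternative settings: in DESeq2, in limma-voom, with upper-quartile scaling, with the replicate block and, at a smaller change, without control replicate 5 (0.28, adjusted p = 0.00437; range over 17 settings 0.00437 to 0.323).

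The constitutive genes split. Dnaja1 was 5.33-fold higher in lymphoma (191 ± 31.3 against 35.8 ± 2.07 CPM; log2 fold change 2.49, SE 0.13, adjusted p = 8.61e-11). Hsp90ab1 was lower (905 ± 99.8 against 1896 ± 54.2 CPM; -0.99, SE 0.08, adjusted p = 6.25e-09). The mitochondrial pair was lower as well, Hspd1 at 40.8 ± 8.06 against 86.1 ± 4.86 CPM (-0.98, SE 0.11, adjusted p = 4.74e-07) and Hspe1 at 12.4 ± 1.46 against 17.3 ± 1.70 CPM (-0.41, SE 0.13, adjusted p = 0.00697). Hspa8 overlapped between the groups (268 ± 59.5 against 240.5 ± 46.0 CPM; 0.24, SE 0.20, adjusted p = 0.291). In all, 8 of the 10 were called, 5 higher and 3 lower, against 83.5% of all 13347 genes (40.6% higher, 42.8% lower), and 9 of the 10 did not overlap, against 79.1% of all genes (36.4% higher, 42.7% lower). At an unadjusted p under 0.05 there were 8, against 84.2% of all genes, so all these shares are near the background of this contrast. DESeq2 and limma-voom each called 9. Upper-quartile scaling moved the median of all genes by 0.29, and with it Hspa8 was called higher (0.52, adjusted p = 0.0337; range over 17 settings 0.0337 to 0.922) and the call of Hspe1 was lost (-0.12, adjusted p = 0.40; range 5.12e-05 to 0.40). Each of the other 7 calls was kept under all 17 alternatives.

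To compare genes with one another, levels were divided by exon length (CPM per kb). That length spans all annotated exons of a gene, and stretches shared with other genes were not taken out, so the order is approximate. Hsp90ab1 was the highest of the 10 in all 4 groups, at 632 ± 18.1 CPM per kb in WT, 685 ± 39.5 in KO, 302 ± 33.3 in control and 411 ± 38.5 in shTet2 libraries. Hspa8 came next in each group, at 57.9 ± 11.1, 57.8 ± 4.76, 64.5 ± 14.3 and 81.0 ± 2.12 CPM per kb. In GC B cells these were followed by Dnajb1, Hspd1 and Hsp90aa1, and Dnajb1 and Hspd1 overlapped in both genotypes (33.4 ± 2.02 and 32.6 ± 1.84 CPM per kb in WT). Hsph1, Hspe1 and Dnaja1 lay between 4.15 and 16.1 CPM per kb as group means in GC B cells. Hspa1b and Hspa1a were the lowest in all 4 groups, at 0.165 and 0.0442 CPM per kb in WT, 3.44 and 1.25 in KO, 6.37 and 3.45 in control and 3.88 and 2.65 in shTet2 libraries. In control lymphoma the ranges of neighbours overlapped at all steps of the order other than from Hsp90ab1 to Hspa8 and from Hspd1 to Hspe1. In KO libraries the ranges of Dnaja1, Hspa1b and Hspa1a overlapped from each to the next.

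The ratio of inducible to constitutive chaperone RNA was higher in lymphoma. The summed level of the 5 inducible genes, as a percentage of that of the 5 constitutive genes in the same library (CPM per kb), was 9.12, 10.01 and 9.27% in WT and 9.98, 11.3, 8.87 and 9.64% in KO libraries. It was 25.9, 30.8, 31.9, 25.4 and 38.9% in control and 29.0 and 18.1% in shTet2 libraries. All lymphoma libraries lay above all GC libraries, and within each cell type the Tet2 groups overlapped. The group means were 9.47 ± 0.476, 9.96 ± 1.03, 30.6 ± 5.46 and 23.5 ± 7.71% (SD, n = 3, 4, 5 and 2). With Hspa1a and Hspa1b left out they were 9.44, 9.37, 28.3 and 22.3%, so the other 3 inducible genes give most of the ratio in each group. Both sums differed between the cell types: the inducible genes summed to 64.5 to 77.0 CPM per kb in WT and 98.3 to 191 in control libraries, and the constitutive genes to 708 to 769 and 371 to 491. Most of the constitutive sum was Hsp90ab1, at the means of 632 and 302 CPM per kb given above. No p-value is given for this ratio, since it is a score over chosen genes. It also depends on the grouping made here: Dnaja1, counted as constitutive, was 5.33-fold higher in control lymphoma than in WT.

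Pairs of an inducible and a constitutive gene of the same family behaved differently. Hspa1a and Hspa1b together were 0.252 to 0.573% of Hspa8 in WT, 1.303 to 13.8% in KO, 7.54 to 22.2% in control and 5.89 to 10.2% in shTet2 libraries (CPM per kb). The KO libraries thus ran from near the WT range into the lymphoma range. Hsp90aa1 was 3.49 ± 0.352% of Hsp90ab1 in WT and 3.33 ± 0.247% in KO, against 14.7 ± 2.25% in control and 12.5 ± 3.65% in shTet2 libraries. For the J-domain pair the order was opposite, with Dnajb1 at 806 ± 34.8% of Dnaja1 in WT, 882 ± 34.1% in KO, 204 ± 50.9% in control and 278 ± 16.9% in shTet2 libraries. Hspe1, which works with Hspd1 in the chaperonin, was 36.0 ± 2.78% of Hspd1 in WT, 48.5 ± 8.33% in KO, 55.4 ± 9.16% in control and 65.7 ± 7.39% in shTet2 libraries. The share of sequence that is not unique differs between the partners, so these percentages compare groups and not the true amounts of 2 RNAs.

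**Figure D3:**
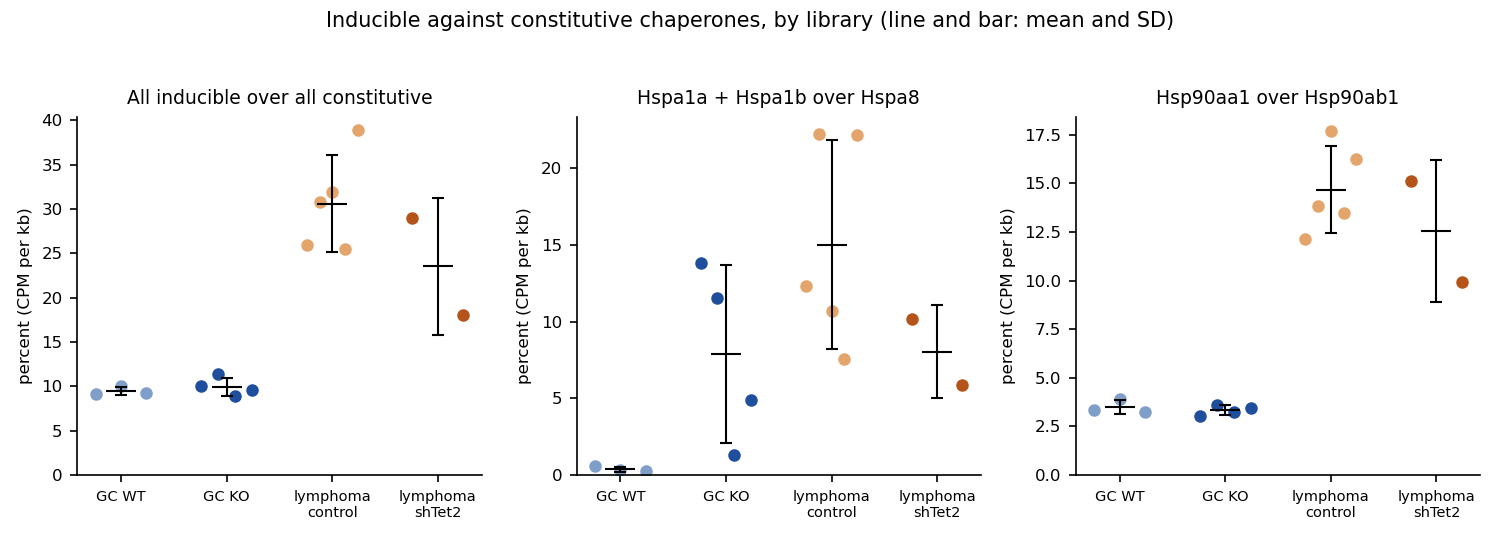
Inducible over constitutive chaperones in each of the 14 libraries (points) in 4 groups, as a percentage of CPM per kb, for the 2 classes, for the inducible HSP70 pair over Hspa8 and for Hsp90aa1 over Hsp90ab1, with bars for mean and SD. The 7 lymphoma points lie above the 7 GC points in the first and last panels, and the 4 KO points of the middle panel run from 1.303 to 13.8%.

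Within groups, the deviation of each library from its group mean (log2 CPM, prior count 2) showed which genes varied together. Over the 7 lymphoma libraries, Pearson's r of these deviations was 0.94 between Hspa1a and Hspa1b, 0.95 between Hspa1b and Hsph1, 0.93 between Dnajb1 and Hsph1 and 0.92 between Dnajb1 and Hsp90aa1. Among constitutive genes it was 0.82 between Hsp90ab1 and Hspd1, and between Dnaja1 and Hspd1 it was -0.06. Pairs across the classes were also high in these libraries, at 0.81 between Hsp90aa1 and Hspa8, 0.78 between Hsp90aa1 and Dnaja1 and 0.77 between Hsph1 and Dnaja1. Over the 7 GC libraries it was 0.87 between Hspa1a and Hspa1b, which share sequence, but 0.16 between Hspa1b and Hsph1 and -0.18 between Hspa1b and Hsp90aa1. Between Hspa1b and Dnajb1 it was 0.60 in GC and 0.80 in lymphoma libraries. Counts of Hspa1a and Hspa1b are sparse in the WT libraries, so nothing is read from the low GC values. In lymphoma the 2 shTet2 deviations mirror each other by construction. Control replicate 5 lay far above its group mean in the inducible genes, at 1.14 for Hspa1b and 0.62 for Hsph1. The lymphoma values may therefore rest on few libraries. The points share libraries and their scaling, so these values are a description.

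In KO replicate 4, Hspa1a and Hspa1b deviated from the KO mean by -1.96 and -2.13 (log2), while Dnajb1 and Hsp90aa1 deviated by -0.07 and 0.04. In control replicate 5 of the lymphoma, all 10 genes lay above the control mean, from 0.21 for Hspe1 to 1.14 for Hspa1b (log2). Among 7895 other genes with a mean of at least 10 CPM, the deviations most like the mean of the inducible genes over the 14 libraries were those of Sirt1 (r = 0.91), Ammecr1l (0.86), Zfp53 (0.85), Narf (0.81) and Jmjd6 (0.80). Sirt1, a deacetylase, ranged from 30.1 to 41.2 CPM in GC and from 56.8 to 73.3 CPM in lymphoma libraries. Most like the mean of the constitutive genes were Noa1 (0.91), Mfap1b, Tpm4 and Trappc6b (0.86 each) and Tagln2 (0.85). Both sets were picked as the largest of 7895 correlations over 14 libraries, a choice that by itself can give high r. They are a description only.

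**Figure D4:**
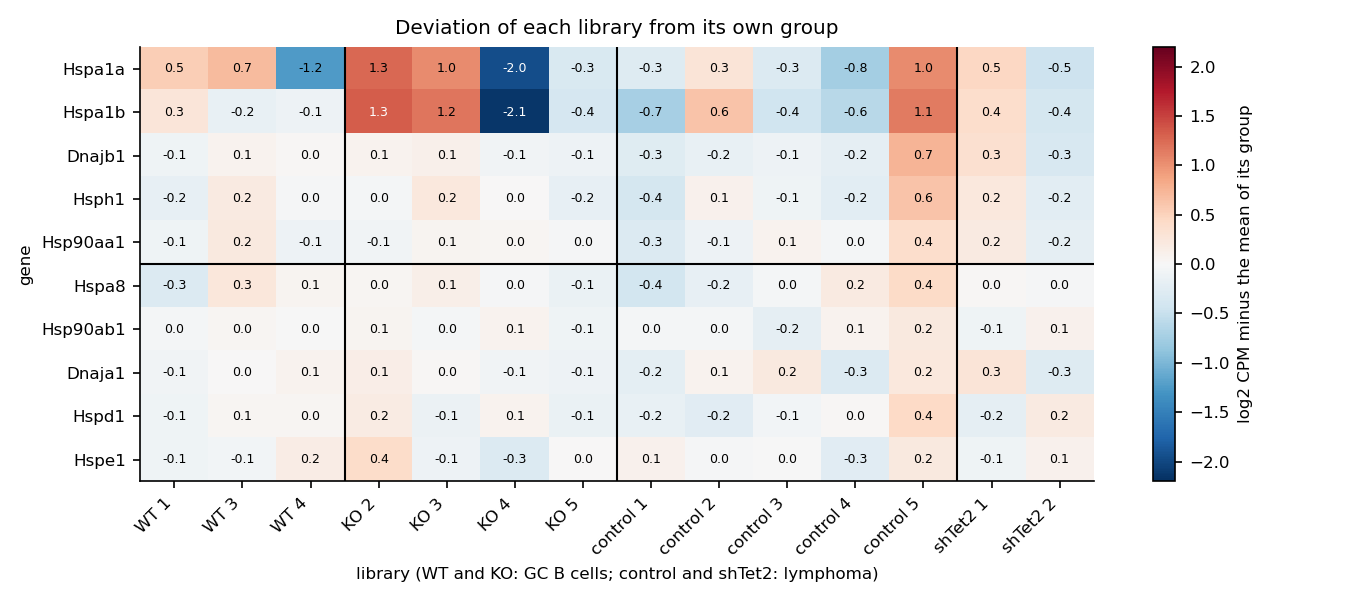
Deviation of log2 CPM from the mean of the library's own group for the 10 genes (rows, inducible above the line) and 14 libraries (columns), from blue for low to red for high. Control replicate 5 is above its group in every gene, and the widest deviations among the GC libraries are those of Hspa1a and Hspa1b, with KO replicates 2 and 3 high and KO replicate 4 low.

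The wider chaperone network was read from lists of genes chosen with earlier results of these data known. Hsf1, which encodes the factor that switches on heat shock genes, was at 38.5 to 42.7 CPM in WT and 40.5 to 47.0 CPM in KO (log2 fold change 0.06, SE 0.08, adjusted p = 0.746). It was at 24.8 to 31.4 CPM in control and 23.8 to 24.9 CPM in shTet2 lymphoma (-0.15, SE 0.13, adjusted p = 0.572). In control lymphoma Hsf1 was lower than in WT GC B cells, with no overlap (26.8 against 40.7 CPM as means; -0.55, SE 0.09, adjusted p = 3.04e-05). Hsf2, a related factor, stayed between 5.67 and 9.86 CPM in all 14 libraries and was called in none of the comparisons. Of 5 factors and regulators tested in GC B cells 0 were called, against 6.49% of all genes. Of 4 tested in lymphoma 1 was lower in shTet2, against 0.742% of all genes, and this was Ier5, an early response gene whose product acts on HSF1 (133 ± 11.2 against 92.9 ± 9.13 CPM; -0.54, SE 0.11, adjusted p = 0.0254). That call was lost in 6 of 16 settings, among them those without control replicates 1, 2, 3 or 4 and without shTet2 replicate 2 (adjusted p up to 0.384).

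A further list was grouped here as heat-inducible, although not every gene in it, Hspa2 among them, is a typical heat-responsive gene. In this list 0 of 12 were higher in KO and 2 were lower, against 4.57% of all genes lower. These were Hspa2, an HSP70 best known from the testis (47.1 ± 6.42 in WT against 31.7 ± 1.22 CPM in KO; -0.62, SE 0.09, adjusted p = 0.00079), and Hmox1, heme oxygenase 1 (11.01 ± 1.32 in WT against 6.96 ± 1.2998 CPM in KO; -0.71, SE 0.15, adjusted p = 0.00851). The call of Hmox1, a gene abundant in macrophages, was lost in 1 model of all 4 groups, and the myeloid markers were lower in the same libraries. The median of the 12 was -0.02, beside 0.01 over all genes. In lymphoma 0 of 10 were called (median -0.04), with the smallest p for Dnajb4, a J-domain protein (26.6 ± 3.28 in control against 17.1 ± 5.10 CPM in shTet2; -0.65, SE 0.18, adjusted p = 0.0772). The 21 cytosolic co-chaperones of HSP70 and HSP90 had 0 calls in both Tet2 comparisons, with medians of 0.0026 in GC B cells and 0.18 in lymphoma. The smallest p among them was that of Bag2, a partner of HSP70, in both (9.24 ± 0.764 in WT against 11.7 ± 0.547 CPM in KO, adjusted p = 0.159, and 1.12 ± 0.689 in control against 3.68 ± 1.62 CPM in shTet2, adjusted p = 0.0852).

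Endoplasmic reticulum chaperones, which fold secreted and membrane proteins and answer to a separate stress pathway, differed in lymphoma. Of 14 tested, 8 rose in shTet2 and 0 fell (median 0.64), against 1.84% of all genes higher. Hyou1 was at 90.2 to 108 CPM in control and 157 and 233 CPM in shTet2 (0.99, SE 0.13, adjusted p = 0.00418), Sdf2l1 at 6.94 to 13.3 against 22.5 and 50.6 CPM (1.79, SE 0.29, adjusted p = 0.02), and Canx, calnexin, at 223 to 294 against 333 and 432 CPM (0.56, SE 0.12, adjusted p = 0.0281). Of 16 alternative settings, the call was lost in 1 for Hyou1, 4 for Sdf2l1 and 7 for Canx. The summed level of the list was 2111 to 2427 CPM in control, 2868 CPM in shTet2 replicate 1 and 4481 CPM in shTet2 replicate 2. The count of higher calls was 1 without control replicate 1, 2 or 3, 2 without control replicate 4, 3 without control replicate 5 or shTet2 replicate 2 and 13 without shTet2 replicate 1, and 0 with the replicate block. Without shTet2 replicate 2 the median was 0.33. DESeq2 called 11 and limma-voom 4. Of the plasma-cell markers 2 of 5 tested were called higher in shTet2, while their sums overlapped (457 to 760 CPM, against 329 to 468 CPM in control). Their part in this result was not tested. In GC B cells 0 of the 14 were called (median -0.08), with the smallest p for Dnajb9 (14.1 ± 1.66 in WT against 19.8 ± 2.72 CPM in KO; 0.44, SE 0.13, adjusted p = 0.0522).

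The TRiC chaperonin and prefoldin, which fold actin and tubulin, had 1 call of 14 in lymphoma, against 1.84% of all genes higher. This was Cct3 (77.7 ± 8.53 in control against 121 ± 13.1 CPM in shTet2; 0.61, SE 0.11, adjusted p = 0.0175), a call lost without control replicates 1 or 3, without shTet2 replicate 2 and with the replicate block. It had 0 calls in GC B cells, where the prefoldin gene Vbp1 had the smallest p (0.19, SE 0.09, adjusted p = 0.265). Mitochondrial chaperones and proteases had 0 calls of 10 in either, with the smallest p for the protease Lonp1 in GC B cells (0.16, SE 0.08, adjusted p = 0.299) and for the mitochondrial HSP90 gene Trap1 in lymphoma (0.43, SE 0.13, adjusted p = 0.105). Between control lymphoma and WT GC B cells all 14 genes of TRiC and prefoldin were lower in lymphoma (median -1.47), as were 18 of 21 co-chaperones (median -1.17) and 9 of 10 mitochondrial chaperones and proteases (median -0.83), with 42.8% of all genes lower. The further list grouped as heat-inducible had 2 of 11 higher and 5 lower (median -0.48). The endoplasmic reticulum chaperones had 6 of 14 higher and 7 lower (median -0.21), and the immediate early genes 10 of 13 higher and 0 lower (median 1.19). Of all genes 40.6% were higher. All 14 TRiC and prefoldin genes were called lower under each of the 17 alternatives.

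Immediate early genes were lower in shTet2 lymphoma for 5 of 13 tested, with 0 higher (median -0.99), against 0.742% of all genes lower. Zfp36 (368 ± 44.3 in control against 171 ± 18.4 CPM in shTet2), Fos (502 ± 72.6 against 251 ± 28.3 CPM) and Dusp1 (147 ± 16.8 against 72.7 ± 20.5 CPM) were among them. The count was 2 without shTet2 replicate 2, 10 in DESeq2, 3 in limma-voom and 0 with the replicate block. In GC B cells the log2 fold change was positive for 8 of 14 (median 0.11, beside 0.01 over all genes). Of the 14, 0 were called higher in KO and 2 lower, against 4.57% of all genes lower. These were Egr1 (-0.63, SE 0.10, adjusted p = 0.00142) and Egr2 (-0.78, SE 0.19, adjusted p = 0.0233). Egr2 was not called without WT replicate 1 or 3, nor either gene in 1 model of all 4 groups.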

How the data were processed

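RNA from mouse spleen B cells was sequenced with a stranded TruSeq mRNA kit, per the labels' protocols. Unscaled counts of reads for each gene name, in 2 tables, are what the authors deposited: STAR 2.3.0e and GRCm38.p3 are named in the submitters' processing notes, and featureCounts 1.5.1 over GENCODE M3 exons, with no strand, paired-end or multi-mapping option, per the file headers. Exon lengths, per the file headers, gave CPM per kb. Groups came from the genotype labels and titles.

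Genes were tested on the counts with edgeR 4.0.16 (R 4.3.3; TMM scaling, filterByExpr, robust quasi-likelihood fit, Benjamini-Hochberg adjustment over all genes tested, threshold 0.05). The difference between the KO and shTet2 effects came from 1 model of all 14 libraries. The code was tested on simulated data with 200 changed genes: of genes changed 2-fold, 79% were found for KO against WT and 52% for shTet2 against control, and of genes changed 4-fold, 93% and 84%. For the difference of effects 43% and 72% were found. Of the calls, 8.02%, 6.85% and 6.50% in these 3 comparisons were genes that had not been changed, above the nominal 5%. Alternatives were other scalings, filters, DESeq2 1.42.0, limma-voom (limma 3.58.1), 190 structural RNA rows left out, 1 model of all groups, a replicate block and each library left out. No replicates were copies of one library (chi-square per degree of freedom at least 12.0).

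Named genes were the 10 chaperones, Tet2, Hsf1, Hsf2, up to 3 called genes per network list and Tet2 comparison by smallest p (or the 1 with the smallest p), and the 5 genes whose deviations were most like each class. The members and lists were chosen with earlier results of these data known. Promoter windows are RefSeq's, on GRCm38.p6, and shared stretches of 50 bases were counted in GENCODE M21 transcripts with Python 3.11.15. Counting intervals and floors cover counting error only.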

Additional observations from a re-analysis of the deposited data

Results flagged for a closer look

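Among 22 groups of 4 or 5 libraries tested (the 10 chaperones in KO and in control libraries, and the class ratio), 1 had a library far from the others. Dnajb1 lay at 165.9 CPM in control replicate 5 of the lymphoma, with the other 4 controls between 82.5 and 91.3 CPM. Chance flags about 1 in 20 groups. All 10 chaperones were highest among the controls in this library.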

How the results depend on the processing

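Between KO and WT, edgeR called 883 genes, 1365 without a filter and 570 with the replicate block. It called 0 chaperones, 2 in 1 model of all groups, 2 in DESeq2, 1 without a filter, 1 with the replicate block and 0 to 2 with 1 library left out (2 without KO replicate 4). Between shTet2 and control, the 330 genes called became 840 in 1 model, 593 in DESeq2, 782 without a filter, 4 with the replicate block and 100 to 2481 with 1 library left out (127, 143, 100 and 189 without control replicates 1 to 4, 2481 and 130 without shTet2 replicates 1 and 2). The chaperones called there were 2, 1 and 2 in the first 3 of these settings and 0 to 3 with 1 library left out (1 without control replicate 5, 3 without shTet2 replicate 1). For the difference of effects, the 771 genes became 1198 in DESeq2, 256 with the replicate block and 283 to 2001 with 1 library left out (499 without KO replicate 5, 455 without WT replicate 3, 510.0 without control replicate 3, 2001 and 283 without shTet2 replicates 1 and 2). The chaperones called were 2 in DESeq2, 2 with a filter at 1 CPM, 1 with the replicate block and 0 to 2 with 1 library left out (2 without KO replicate 4, 1 without shTet2 replicate 1). The cause of these shifts was not tested. The class ratio in WT was 10.1% without the mitochondrial genes, and without division by length it was 11.6% in WT and 11.6% in KO.

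Signs turned only for changes that were not called (ranges are over libraries left out in turn). Between KO and WT these were Hsp90aa1 (0.042 in 1 model, 0.0029 with the replicate block, range -0.063 to 0.098), Hspa8 (-0.19 to 0.076), Dnaja1 (-0.047 with the replicate block, -0.031 to 0.062) and Hspd1 (0.028 in 1 model, -0.086 to 0.021). Between shTet2 and control they were Hspa1a (-0.92 to 0.021), Dnajb1 (0.13 with the replicate block, -0.50 to 0.20), Hsph1 (0.0079 with the replicate block, -0.42 to 0.049) and Hsp90aa1 (-0.054 to 0.36). For the difference they were Dnajb1 (-0.0019 with the replicate block), Hsph1 (-0.11 with the replicate block, -0.15 to 0.30) and Hsp90aa1 (-0.31 to 0.074).

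Same-numbered libraries deviated together with r from -0.07 to 0.05 over 2000 genes, so the numbers were not taken to pair the libraries. Fits with the replicate block compare only numbers found in both groups, so their adjusted p rests on few libraries. With shTet2 at 2 libraries, leaving out 1 assumes that the other varies like the controls. Depth outside structural RNA, as low as 1525883 counts in control replicate 2, limits low genes in lymphoma.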
